A study of Mus musculus with 6 samples.

Results

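The genes described here encode the enzymes that write and remove DNA methylation and the chromatin proteins known to work with the orphan receptor SHP in gene repression. They were taken by name as 10 genes, namely the DNA methyltransferases Dnmt1, Dnmt3a and Dnmt3b, the TET dioxygenases Tet1, Tet2 and Tet3, the DNMT1 partner Uhrf1, the histone demethylase Kdm1a (LSD1), the histone methyltransferase Ehmt2 (G9a) and the histone deacetylase Hdac3. All 10 were among the 23284 genes counted, and 8 of them were among the 12559 genes that passed a filter on low counts and were tested. Liver RNA was sequenced from 6 C57BL/6 mice of 8 weeks that had been fasted overnight, 3 that then received vehicle and 3 that received FGF19 at 1 mg/kg, and all were kept without food for the 6 h of treatment. FGF19 is the human counterpart of mouse FGF15, a gut hormone released after a meal, so the comparison gives the response of a fasted wild-type liver to a single dose of the human hormone. The mice carried no transgene or deletion, and the study's methods give 3 mice per group with 1 library per mouse and describe its animals as male, so p-values measure the spread between mice. The question was whether the mRNAs of this machinery change when FGF19 acts on the liver.

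DNMT3A and DNMT3B place methyl groups on unmethylated CpG dinucleotides, and DNMT1, brought to newly replicated DNA by UHRF1, copies existing methylation to the daughter strand. The TET enzymes oxidise 5-methylcytosine to 5-hydroxymethylcytosine and further, after which base excision repair can restore cytosine. SHP, encoded by Nr0b2, is an orphan nuclear receptor without a DNA-binding domain that is induced by bile acid signalling and lowers transcription of hepatic genes by bringing corepressors such as LSD1, G9a and histone deacetylases to them.

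Total counts lay between 18994654 and 22920056 per library, and no pair of libraries agreed within sampling noise. In FGF19-treated livers, 357 genes were called lower (2.84% of those tested) and 573 higher (4.56%) at an adjusted p under 0.05 in the edgeR quasi-likelihood test. These counts moved with single libraries. Leaving out FGF19 replicate 3 gave 926 lower and 1015 higher, and the other 5 fits with 1 library left out gave between 91 and 202 lower and between 236 and 398 higher. Cyp7a1, the rate-limiting enzyme of bile acid synthesis and a classical FGF19 target, served as a check of the treatment and had a level of 268 ± 44.1 CPM (counts scaled to a common library size) in vehicle-treated mice and 11.4 ± 1.75 CPM in FGF19-treated mice (SD, n = 3 each; log2 fold change -4.56, SE 0.149, adjusted p = 9.41e-07 in edgeR). Hepatocyte markers summed to between 107015 and 112022 CPM in vehicle livers and between 96922 and 108603 CPM in FGF19 livers. Of the 9 tested, 0 passed at an adjusted p under 0.05 (against 7.41% of all genes). At an unadjusted p under 0.05, 2 passed (against 22.9%).

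The start of Dnmt3a is shown because DNMT3A is the methyltransferase on which the study centres, and that of Dnmt3b because its log2 fold change was the furthest from 0 among the 8 tested genes. Nr0b2 is shown beside them because it is the SHP gene itself and rose with treatment. The 250 bases before each start are printed from RefSeq on build GRCm38.p6, plus strand, with every CG in capitals. CG reads the same on both strands, so 1 search covers both.
Dnmt3a, first start, chr12:3806730-3806979: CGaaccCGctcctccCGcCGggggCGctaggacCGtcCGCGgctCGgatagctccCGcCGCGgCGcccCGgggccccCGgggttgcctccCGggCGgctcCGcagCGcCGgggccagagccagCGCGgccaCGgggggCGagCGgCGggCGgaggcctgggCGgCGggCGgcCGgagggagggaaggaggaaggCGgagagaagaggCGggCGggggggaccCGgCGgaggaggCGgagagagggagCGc
Dnmt3a, internal start, chr12:3891494-3891743: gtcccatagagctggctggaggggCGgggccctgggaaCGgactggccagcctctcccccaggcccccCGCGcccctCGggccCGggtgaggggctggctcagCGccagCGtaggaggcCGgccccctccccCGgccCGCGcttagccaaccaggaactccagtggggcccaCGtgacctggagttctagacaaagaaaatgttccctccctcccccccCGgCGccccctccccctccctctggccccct
Dnmt3b, chr2:153649199-153649448: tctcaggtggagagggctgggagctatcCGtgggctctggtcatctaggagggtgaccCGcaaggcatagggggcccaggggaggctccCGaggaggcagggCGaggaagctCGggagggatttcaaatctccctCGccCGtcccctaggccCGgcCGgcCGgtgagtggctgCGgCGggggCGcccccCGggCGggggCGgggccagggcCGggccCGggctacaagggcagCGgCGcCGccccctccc
Nr0b2, chr4:133553126-133553375: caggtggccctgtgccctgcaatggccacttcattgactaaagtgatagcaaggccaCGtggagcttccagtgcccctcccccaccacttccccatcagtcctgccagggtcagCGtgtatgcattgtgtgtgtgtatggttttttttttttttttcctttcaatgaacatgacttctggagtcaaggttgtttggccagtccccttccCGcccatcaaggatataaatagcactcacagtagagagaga
The printed stretches hold 38, 15, 21 and 3 CG. In windows that run from 250 bases before to 50 bases after a start, the median over all 32851 RefSeq windows was 7 CG. The window of the first Dnmt3a start held 46, a number reached by 1.65% of all windows, and that of the internal start held 18, reached by 29.7%. The Dnmt3b window held 30 (reached by 11.7%) and the Nr0b2 window 3 (reached by 76.7%). Of the 10 genes, 9 were matched in the promoter table, and each of the 9 had at least 1 window above the median. The highest window of each gene held between 17 CG (Tet1) and 57 CG (Tet2). Other windows of the same genes held fewer, down to 2 CG at a start of Dnmt1. The counts are per gene, over all exons, so transcripts from the first and the internal start of Dnmt3a were not separated.

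Compared as RPKM, the CPM per kilobase of exon, the SHP corepressors were the most abundant of the 10 mRNAs in vehicle-treated livers. Hdac3 was at 18.5 ± 1.501 RPKM and Ehmt2 at 17.5 ± 1.09 RPKM (SD, n = 3), and their ranges overlapped. Kdm1a followed at 4.94 RPKM. Tet3 was the highest TET mRNA at 2.46 RPKM, and Dnmt3a the highest DNA methyltransferase mRNA at 2.24 RPKM, followed by Dnmt1 at 1.41 RPKM. Tet2 at 0.951 RPKM and Dnmt3b at 0.823 RPKM overlapped. Uhrf1 at 0.0181 RPKM and Tet1 at 0.0070 RPKM stood on a few reads each, and their order was reversed when medians were used in place of means. The other neighbours in this order did not overlap. After FGF19 the order was the same except that Dnmt3a at 2.61 RPKM stood above Tet3 at 2.18 RPKM, with overlapping ranges, and Dnmt3b at 1.13 RPKM above Tet2 at 0.772 RPKM, without overlap.

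**Figure D1:**
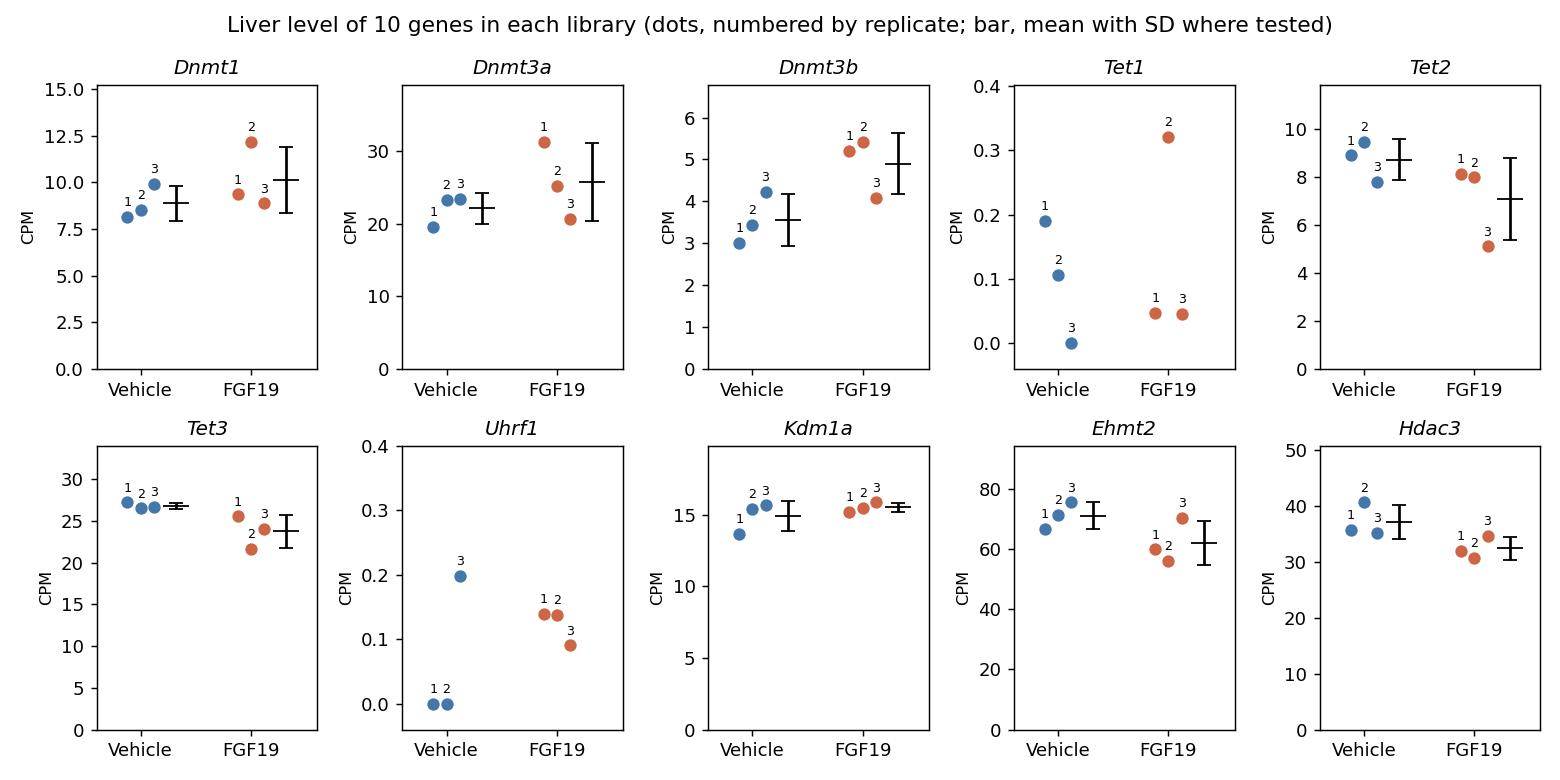
Level of each of the 10 genes in CPM (linear axis, from 0) in the 3 vehicle (blue) and 3 FGF19 (orange) libraries, each dot 1 mouse with its replicate number, and bars the mean with SD for the 8 tested genes. The FGF19 dots lie below all vehicle dots in Tet3 and Hdac3, and the groups overlap in the other 6 tested genes.

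Among the 8 tested genes, 0 were called at an adjusted p under 0.05, against 7.41% of all genes tested. The count was also 0 with edgeR's likelihood ratio test, limma-voom and DESeq2, and at p under 0.01, which 11.2% of all genes passed. At an unadjusted p under 0.05, 1 of 8 passed (Dnmt3b), against 22.9% of all genes. The groups did not overlap in 2 of 8 (Tet3 and Hdac3, both lower), against 28.3% of all genes. Estimates were above 0 in 4 genes (the 3 DNA methyltransferases and Kdm1a) and below 0 in 4 (Tet2, Tet3, Ehmt2 and Hdac3), with a median of -0.06 over the 8 genes and -0.00076 over all genes tested. Without the filter on low counts, when Tet1 and Uhrf1 were fitted too, 0 of the 10 were called in edgeR and the median was 0.12. Whole liver was sequenced, so fewer cells of a type and less RNA per cell cannot be told apart.

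**Figure D2:**
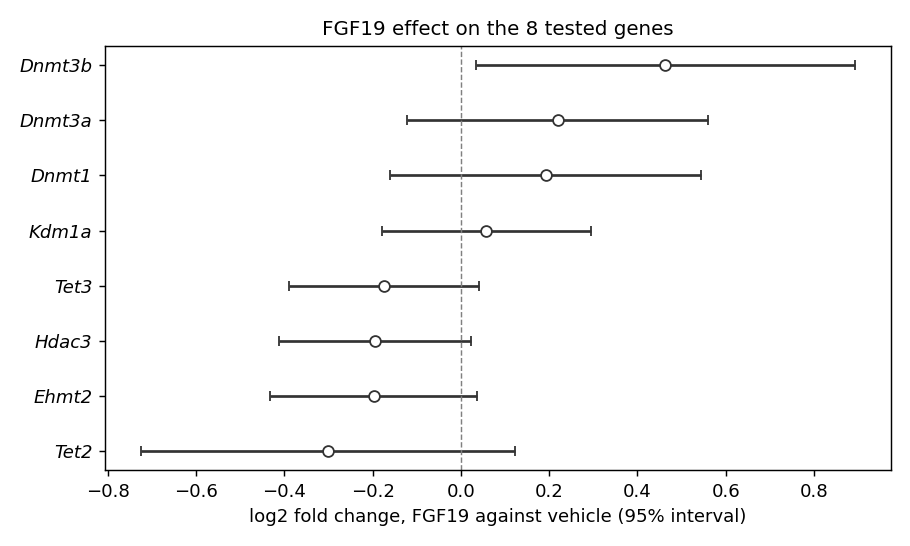
Log2 fold change, FGF19 against vehicle, of the 8 tested genes with its 95% interval. The interval of Dnmt3b, from 0.03 to 0.89, lies above 0, and the intervals of the other 7 genes include 0.

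The DNA methyltransferase mRNAs did not pass the test, and their estimates were all above 0. Dnmt3a (chr12:3806980-3914443 in mm9, plus strand, 9852 bases of exon) had levels of 19.6, 23.3 and 23.5 CPM in the vehicle livers and 31.3, 25.3 and 20.6 CPM in the FGF19 livers. The FGF19 livers thus included the 2 highest levels and a level below 2 of the vehicle livers. The mean was 22.1 ± 2.19 CPM with vehicle and 25.7 ± 5.35 CPM with FGF19, a log2 fold change of 0.22 (SE 0.152, 95% interval -0.12 to 0.56, adjusted p = 0.441 in edgeR). On the linear scale the interval ran from 0.919-fold to 1.47-fold. The estimate depended on single FGF19 libraries and was 0.05 without FGF19 replicate 1 (adjusted p = 0.899), 0.36 without FGF19 replicate 3 (adjusted p = 0.0886) and 0.14 without vehicle replicate 1 (adjusted p = 0.714).

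Dnmt3b (chr2:153475190-153513466 in mm9, plus strand, 4322 bases of exon), the other de novo methyltransferase, had the lowest level of the 3. It was read 63, 65 and 85 times in the vehicle libraries and 112, 118 and 90 times in the FGF19 libraries. As levels these were 3.00, 3.44 and 4.22 CPM against 5.21, 5.42 and 4.07 CPM. A pair of FGF19 livers exceeded every vehicle liver, and the remaining FGF19 liver lay just below the highest vehicle liver. The mean was 3.56 ± 0.616 CPM with vehicle and 4.90 ± 0.725 CPM with FGF19, a log2 fold change of 0.46 (SE 0.191, 95% interval 0.03 to 0.89, or 1.02-fold to 1.86-fold). The adjusted p was 0.185 in edgeR, and between 0.0698 and 0.434 in edgeR with 1 library left out.

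Dnmt1 (chr9:20711650-20764332 in mm9, minus strand, 6304 bases of exon), the maintenance methyltransferase, was at 8.15, 8.53 and 9.93 CPM with vehicle and at 9.35, 12.2 and 8.87 CPM with FGF19. FGF19 replicate 2 was the highest of the 6 livers and the other FGF19 livers lay within the vehicle range. Its log2 fold change was 0.19 (SE 0.157, 95% interval -0.16 to 0.54, adjusted p = 0.523 in edgeR), and it was 0.05 without FGF19 replicate 2. Uhrf1 (chr17:56442760-56462909 in mm9, 3651 bases of exon), which recruits DNMT1 in dividing cells, had 0, 0 and 4 counts with vehicle and 3, 3 and 2 with FGF19, and was removed by the low-count filter. A library without a read of a gene may still hold it at a level worth 3 reads, which is 0.136 to 0.159 CPM here, so a difference in Uhrf1 was not detectable at this depth. Proliferation markers, with which Uhrf1 and Dnmt1 are commonly expressed, summed to between 38.9 and 42.0 CPM with vehicle and between 39.6 and 41.4 CPM with FGF19 over 15 genes. None of the 15 was at 0 in all libraries. Of the 14 tested, 1 was called higher (Mcm2, against 4.56% of all genes) and 1 lower (Birc5, against 2.84%).

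Because a share within a library does not depend on its scaling, the make-up of the methyltransferase mRNAs was compared as each gene's percentage of the summed RPKM of the 3 genes. Dnmt3a made up 50.2% ± 2.03 with vehicle and 48.6% ± 4.96 with FGF19 (exact permutation p = 0.7, two-sided, n = 3 each). Dnmt1 made up 31.5% ± 1.32 and 30.2% ± 4.35 (exact permutation p = 0.8, n = 3 each). Dnmt3b made up 17.5%, 17.7% and 19.8% in the vehicle livers and 20.5%, 21.8% and 21.2% in the FGF19 livers, so that every FGF19 liver had a higher Dnmt3b share than every vehicle liver. The difference in means was 2.88 percentage points (18.3% ± 1.28 against 21.2% ± 0.632, exact permutation p = 0.1, two-sided, n = 3 each), and 0.1 is the smallest p that 3 against 3 mice can give. Including the TET genes, 6 shares were compared, none of which could pass 0.05, and the p-values adjusted over them were 0.6 for Dnmt3b and 0.8 for the others (exact permutation tests).

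The TET mRNAs that could be tested also did not pass, and their estimates were below 0. Tet3 (chr6:83312368-83391672 in mm9, 10906 bases of exon) made up 72.0% of the summed TET RPKM with vehicle and 73.7% with FGF19 (exact permutation p = 0.8, n = 3 each). Its levels were 27.2, 26.5 and 26.7 CPM with vehicle and 25.5, 21.6 and 24.1 CPM with FGF19. The vehicle livers were tightly grouped and all FGF19 livers lay below them, as was the case for 13.8% of all genes tested. This gave a log2 fold change of -0.17 (SE 0.096, 95% interval -0.39 to 0.04, adjusted p = 0.320 in edgeR), and of -0.10 without FGF19 replicate 2 (adjusted p = 0.695).

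Tet2 (chr3:133126641-133207354 in mm9, 9181 bases of exon) was at 8.91, 9.49 and 7.79 CPM with vehicle and at 8.14, 8.00 and 5.12 CPM with FGF19. A pair of FGF19 livers lay within the vehicle range, and FGF19 replicate 3 lay below it. The log2 fold change was -0.30 (SE 0.189, adjusted p = 0.388 in edgeR) and -0.11 without FGF19 replicate 3. Tet1 (chr10:62267318-62342762 in mm9, 14082 bases of exon) had 4, 2 and 0 counts with vehicle and 1, 7 and 1 with FGF19. With 6 and 9 counts per group it was removed by the low-count filter. Tet2 made up 27.8% of the summed TET RPKM with vehicle and 25.9% with FGF19 (exact permutation p = 0.8, n = 3 each), and Tet1 0.20% and 0.34% (exact permutation p = 0.7, n = 3 each).

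The summed RPKM of the 3 methyltransferases was 3.98, 4.51 and 4.93 with vehicle and 5.87, 5.75 and 4.45 with FGF19, with overlapping groups. The summed RPKM of the 3 TET genes was 3.48, 3.47 and 3.30 with vehicle and 3.23, 2.88 and 2.77 with FGF19, without overlap. The ratio of the sums was 1.14, 1.30 and 1.496 with vehicle and 1.82, 1.998 and 1.61 with FGF19, and every FGF19 liver lay above every vehicle liver. This ratio was chosen after the values had been seen and is given without a test.

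Of the SHP corepressors, Kdm1a (chr4:136106448-136158638 in mm9, 3015 bases of exon), which removes methyl groups from lysine 4 of histone H3 as part of the CoREST complex, had the log2 fold change nearest 0 of the 8 tested genes. It was at 13.7, 15.4 and 15.6 CPM with vehicle and at 15.2, 15.4 and 15.8 CPM with FGF19, and apart from the lower vehicle replicate 1 the 6 livers were nearly level. Its log2 fold change was 0.06 (SE 0.105, 95% interval -0.18 to 0.29, adjusted p = 0.797 in edgeR), and -0.00045 without vehicle replicate 1.

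Ehmt2 (chr17:35035444-35050992 in mm9, 4061 bases of exon), which methylates lysine 9 of histone H3, had the highest CPM of the 10 genes. Its levels were 66.6, 71.3 and 75.5 CPM with vehicle and 59.9, 55.9 and 70.2 CPM with FGF19. A pair of FGF19 livers lay below all vehicle livers and FGF19 replicate 3 lay within the vehicle range. The log2 fold change was -0.20 (SE 0.104, 95% interval -0.43 to 0.04, adjusted p = 0.300 in edgeR). Without FGF19 replicate 3 it was -0.29 with an adjusted p of 0.0478, the only call of any of the 10 genes among the 6 fits with a library left out, and without FGF19 replicate 2 it was -0.12 with an adjusted p of 0.668.

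Hdac3 (chr18:38096625-38114642 in mm9, 2005 bases of exon), the deacetylase of the NCoR and SMRT complexes, was at 35.6, 40.6 and 35.1 CPM with vehicle and at 31.96, 30.6 and 34.6 CPM with FGF19. All FGF19 livers lay below all vehicle livers, although FGF19 replicate 3 came close to vehicle replicate 3. The mean was 37.1 ± 3.01 CPM with vehicle and 32.4 ± 2.03 CPM with FGF19, a log2 fold change of -0.20 (SE 0.097, 95% interval -0.41 to 0.02, adjusted p = 0.270 in edgeR). Without vehicle replicate 2 it was -0.13 (adjusted p = 0.576 in edgeR).

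**Figure D3:**
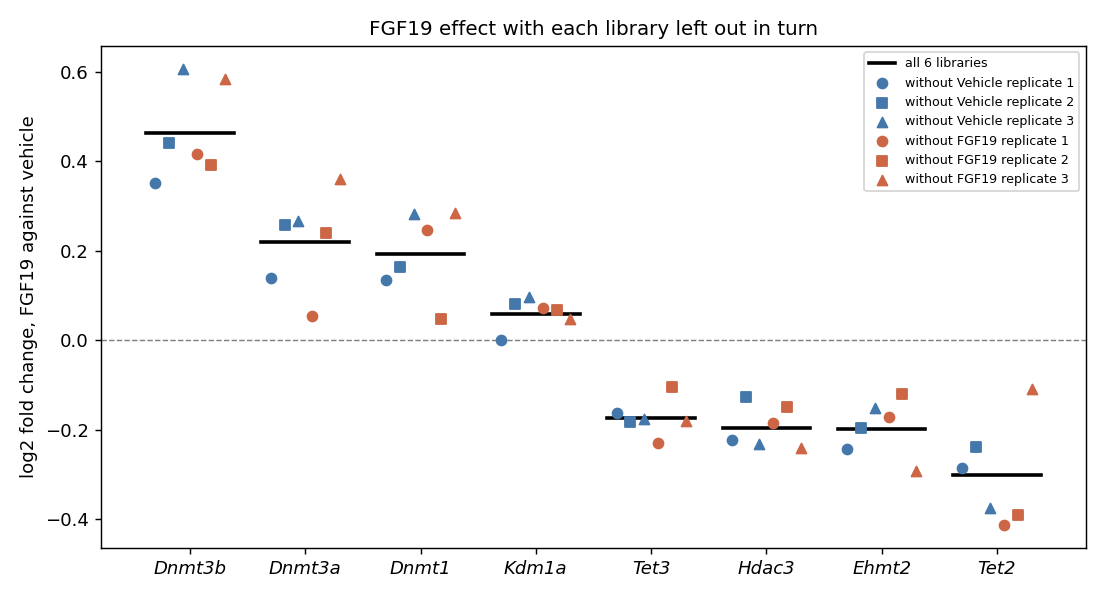
Log2 fold change, FGF19 against vehicle, of the 8 tested genes with all 6 libraries (black lines) and after leaving out single libraries (symbols, blue for a vehicle and orange for an FGF19 library). Dnmt3b stays between 0.35 and 0.61, and Dnmt3a moves from 0.05 to 0.36 with the library left out.

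Over the 6 libraries the pattern of Dnmt3a, high in FGF19 replicate 1 and low in vehicle replicate 1 and FGF19 replicate 3, was most closely followed by Map3k1, Ddah2 and St5. Their root mean square differences from Dnmt3a in centred log2 CPM were 0.0428, 0.0509 and 0.0527, the smallest of 11651 genes with a mean of at least 1 CPM. Like Dnmt3a, these 3 genes had overlapping groups and were not called (adjusted p between 0.598 and 0.663 in edgeR). They were chosen for their likeness to Dnmt3a, so this is not a separate observation.

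The SHP gene itself rose with treatment. Nr0b2 (chr4:133109305-133112451 in mm9, 1118 bases of exon) was at 13.9, 21.8 and 30.9 CPM with vehicle and at 64.5, 54.5 and 54.8 CPM with FGF19. The vehicle livers were widely spread, and every FGF19 liver lay well above them. The mean went from 22.2 ± 8.51 CPM to 57.9 ± 5.69 CPM, a log2 fold change of 1.38 (SE 0.229, 95% interval 0.87 to 1.90, adjusted p = 0.00823 in edgeR), and it was called in all 6 fits with a library left out. Among the 15 tested genes of SHP and its other partners, 1 was called higher (Nr0b2, against 4.56% of all genes). In the same test 1 was called lower (against 2.84%), and 2 in the likelihood ratio test. At an unadjusted p under 0.05, 6 passed (against 22.9% of all genes), and the median was -0.07. The gene called lower was Nr1h4, which encodes the bile acid receptor FXR, at 151 CPM with vehicle and 98.5 CPM with FGF19 (log2 fold change -0.61, adjusted p = 0.0185 in edgeR). The Nr1h4 call was kept without vehicle replicate 2 and FGF19 replicate 3 and lost without each of the other 4 libraries (adjusted p between 0.0683 and 0.0864). No difference between the change of Nr0b2 and those of the corepressor genes was tested.

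The wider machinery was described by 8 lists that hold 103 genes and were chosen with earlier results of these data known. Of these genes, 96 were tested, 11 called lower (against 2.84% of all genes) and 4 called higher (against 4.56%). Of the 11, 8 belonged to the methyl donor cycle. With 1 library left out, between 2 and 14 were called lower and between 2 and 7 higher. The fewest lower calls, 2, came without vehicle replicate 3 and without FGF19 replicate 2, and without FGF19 replicate 1 there were 3. The other lower counts were 7 without vehicle replicate 1, 7 without vehicle replicate 2 and 14 without FGF19 replicate 3. The higher count was 7 without FGF19 replicate 3 and 2 without each of the other 5.

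**Figure D4:**
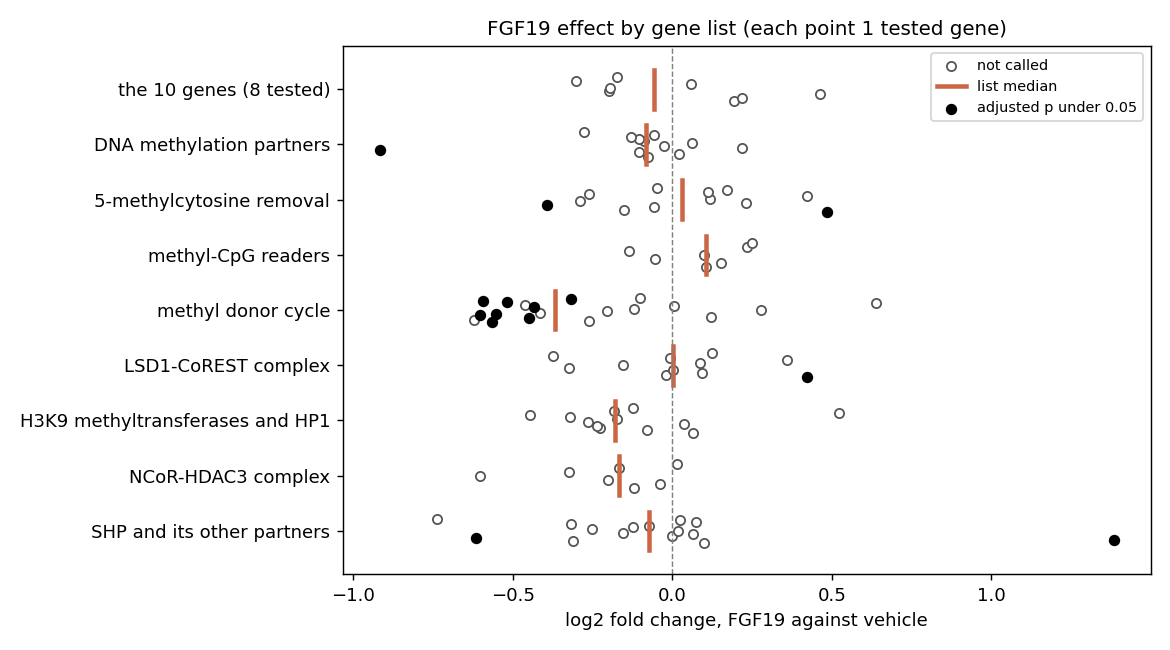
Log2 fold change, FGF19 against vehicle, of the tested genes in the set of 10 and in 8 lists around it (filled points, adjusted p under 0.05; orange line, median over all tested genes of the list; 1 gene not reported here is not drawn). The 20 genes of the methyl donor cycle have the lowest median, -0.37, and Nr0b2 is the point furthest to the right at 1.38.

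The methyl donor cycle makes S-adenosylmethionine, the methyl source of every DNA and histone methyltransferase, and takes up the S-adenosylhomocysteine that these reactions leave. Its list was chosen with earlier results of these data known, so the contrast with all genes describes the list and tests nothing. Of its 20 tested genes, 8 were called lower, 40.0% against 2.84% of all genes, and 1 higher, 5% against 4.56%. Estimates were below 0 in 15, all FGF19 livers lay below all vehicle livers in 13 (against 13.8% of all genes) and 15 passed an unadjusted p under 0.05 in either direction (against 22.9% of all genes). The median was -0.37, and it stayed between -0.37 and -0.28 with 1 library left out. The count of lower calls moved more. It was 2 without vehicle replicate 3, 2 without FGF19 replicate 2, 3 without FGF19 replicate 1, 4 without vehicle replicate 2, 5 without vehicle replicate 1 and 10 without FGF19 replicate 3.

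Among the genes called lower, Ahcy, which hydrolyses the inhibitory product S-adenosylhomocysteine, was at 1179, 1312 and 1214 CPM with vehicle and at 774, 749 and 979 CPM with FGF19. All FGF19 livers lay below the vehicle livers, and FGF19 replicate 3 was the closest to them (log2 fold change -0.57, adjusted p = 0.0202 in edgeR). Shmt1 and Mthfd1, which load and convert one-carbon units on folate, went from 166 to 109.9 CPM (-0.59, adjusted p = 0.00684) and from 256 to 189.8 CPM (-0.43, adjusted p = 0.0147) in the edgeR test. Gamt, which uses S-adenosylmethionine to make creatine, went from 75.4 to 51.4 CPM (-0.55, adjusted p = 0.00545 in edgeR).

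The calls of Gamt and Shmt1 held in all 6 fits with a library left out. The Mthfd1 call was lost without vehicle replicate 3, FGF19 replicate 1 or FGF19 replicate 2 (adjusted p between 0.0648 and 0.0820). The Ahcy call was lost without vehicle replicates 2 or 3 or FGF19 replicates 1 or 2 (adjusted p between 0.0614 and 0.101). The other 4 genes called lower, named after their values were seen, were Pemt (-0.52), Cth (-0.60), Shmt2 (-0.32) and Bhmt2 (-0.45). They held in 2, 3, 1 and 1 of the 6 fits. With the replicate number as a block, Mthfd1, Shmt2 and Bhmt2 were not called and the other 5 were. Bhmt2 was also lost under a filter of 1 CPM in every library (adjusted p = 0.0510 in edgeR), and reads that align to both Bhmt2 and its close paralog Bhmt are missing from both counts. Mat1a, the S-adenosylmethionine synthase of adult liver, was not called (-0.20, adjusted p = 0.358), nor were Bhmt (-0.62, adjusted p = 0.0588) and Gnmt (-0.41, adjusted p = 0.109), which were also named after their values were seen.

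**Figure D5:**
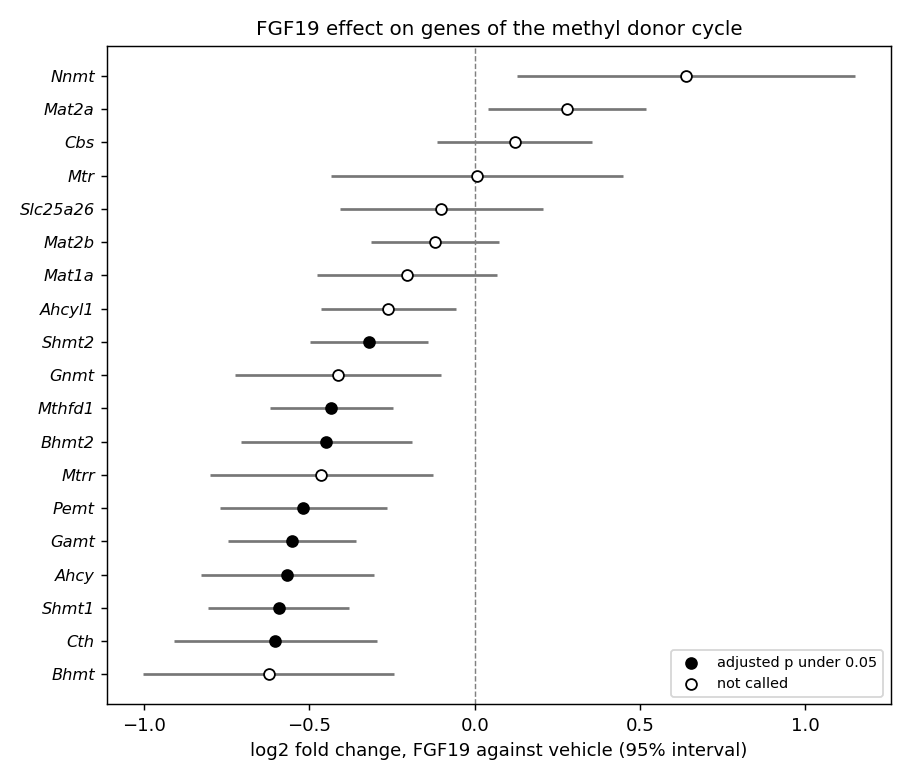
Log2 fold change, FGF19 against vehicle, of tested genes of the methyl donor cycle with 95% intervals (filled points, adjusted p under 0.05; 1 gene of the 20 is not drawn). The 8 called lower lie between -0.60 and -0.32.

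The median of 12 tested partners of the DNA methylation enzymes was -0.08. Of these, 1 was called lower (against 2.84% of all genes) and 0 higher (against 4.56%). It was Ezh2, the histone H3 lysine 27 methyltransferase that can bind DNA methyltransferases, at 7.54 ± 2.14 CPM with vehicle and 3.997 ± 0.582 CPM with FGF19 (log2 fold change -0.92, adjusted p = 0.0404 in edgeR). This call held only without vehicle replicate 2 among the 6 fits with a library left out, with an adjusted p between 0.0535 and 0.164 without each of the other 5 libraries, and it was lost in limma-voom (adjusted p = 0.0586). Among 7 tested readers of methylated CpG, 0 were called (edgeR, likelihood ratio test, limma-voom and DESeq2). At an unadjusted p under 0.05, 1 reader passed (against 22.9% of all genes), and the median was 0.11. Without FGF19 replicate 3, 1 reader was called higher in edgeR.

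Of 12 tested genes that act on 5-methylcytosine removal, 1 was called lower (against 2.84% of all genes) and 1 higher (against 4.56%). The median was 0.03. Idh2, which makes 2-oxoglutarate, a cosubstrate of the TET enzymes, in mitochondria, went from 146 to 111 CPM (log2 fold change -0.39, adjusted p = 0.0219 in edgeR). The call was kept without vehicle replicate 2 and without FGF19 replicate 3 and lost without each of the other 4 libraries (adjusted p between 0.0803 and 0.105). The Idh2 call was also lost with the replicate number as a block. Apex1, an endonuclease of base excision repair, had a log2 fold change of 0.49 (adjusted p = 0.0482 in edgeR), but 70.8% of its exon length overlaps Tmem55b on the opposite strand and the counting did not use strand, so its value is uncertain. Its call held only without FGF19 replicate 3 among the 6 fits, with an adjusted p between 0.0831 and 0.156 in the others, and it was lost without TMM scaling, without the filter on low counts and with the replicate number as a block (adjusted p = 0.0548, 0.0570 and 0.133 in edgeR).

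Around the corepressors, 11 genes of the LSD1-CoREST complex were tested, with a median of 0.00. The likelihood ratio test called 1 lower, and 3 passed an unadjusted p under 0.05 (against 22.9% of all genes). In the quasi-likelihood test 0 were called lower (against 2.84%) and 1 higher (against 4.56%). The gene called higher was Gse1, a subunit of this complex, at 23.5 CPM with vehicle and 31.5 CPM with FGF19 (log2 fold change 0.42, adjusted p = 0.0243 in edgeR). This call held only without FGF19 replicate 3 among the 6 fits (adjusted p between 0.0520 and 0.105 in the others). With the replicate number as a block it was lost. The 12 tested genes of the list of H3K9 methyltransferases, HP1 proteins and their cofactors (among the cofactors Wiz, Atf7ip and Trim28) had 0 calls by edgeR, limma-voom or DESeq2, 3 at an unadjusted p under 0.05 (against 22.9% of all genes), and all FGF19 livers below all vehicle livers in 6 (against 13.8% of all genes). Their median was -0.18. The NCoR-HDAC3 list held 7 tested genes, with the REV-ERB receptors that bind the complex (Nr1d1 and Nr1d2) among them. It had 0 calls in the quasi-likelihood test and limma-voom. Called lower was 1 in DESeq2, in the likelihood ratio test and in the quasi-likelihood test without the filter or without vehicle replicate 1. At an unadjusted p under 0.05, 3 of the 7 passed (against 22.9% of all genes), and the median was -0.17.

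Markers of other cell types were compared because the methylation enzymes are not specific to hepatocytes. Monocyte and neutrophil markers, of which 9 of 10 were in the files, summed to between 4.05 and 5.31 CPM with vehicle and between 12.2 and 15.6 CPM with FGF19. Of the 4 tested, 2 were called higher (Itgam and S100a9, against 4.56% of all genes). In all 4, every FGF19 liver lay above every vehicle liver (against 14.5% of all genes). Kupffer cell markers summed to between 266 and 323 CPM with vehicle and between 257 and 320 CPM with FGF19 over 10 genes. Marco was called higher (1 of 10, against 4.56% of all genes), and estimates were above 0 in 5 and below 0 in 5. Lymphocyte markers summed to between 5.86 and 9.68 CPM and between 5.21 and 8.00 CPM over 10 genes. Of the 7 tested, 0 were called in edgeR and 1 passed an unadjusted p under 0.05 (against 22.9% of all genes). Endothelial markers summed to between 289 and 310.1 CPM with vehicle and between 283 and 315 CPM with FGF19 over 8 genes. Cdh5 was called higher (0.43, adjusted p = 0.0275 in edgeR, 1 of 8 against 4.56% of all genes). The endothelial estimates were above 0 in 4 genes and below 0 in 4. Stellate cell markers summed to between 238 and 330.3 CPM and between 227 and 274 CPM over 8 genes. Colec11 was called lower (-0.75, adjusted p = 0.00878 in edgeR, 1 of 8 against 2.84% of all genes). The stellate estimates were above 0 in 3 genes and below 0 in 5. Cholangiocyte markers summed to between 72.0 and 89.4 CPM and between 55.7 and 86.0 CPM over 6 genes, with 0 of 5 tested called in edgeR and 0 at an unadjusted p under 0.05. No marker in these lists was at 0 in all libraries, and the part of these cells in the levels of the 10 genes was not tested.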

How the data were processed

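Each deposited count is the number of reads that the authors assigned to the exons of a gene with featureCounts 1.5.2 on mm9, without normalization. Per the file headers, strand was not used, mates were counted separately, and reads with several alignments were left out. The submitters' processing notes name bcl2fastq 2.17.1.14, Trimmomatic 0.36, FastQC 0.11.5 and STAR 2.5.3a, and the methods name another version of STAR. Reads shared by close paralogs are therefore missing from both. Antisense overlap was looked up in an annotation of mm9, and none of the 10 genes had any. The authors' own comparison table was not used.

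Groups and replicate numbers came from the sample labels. The test was run in edgeR 4.0.16 on R 4.3.3 (filterByExpr, TMM, quasi-likelihood test, Benjamini-Hochberg adjustment over the 12559 genes tested). The methods give an edgeR pipeline and p under 0.01 without naming the test. CPM used TMM-scaled library sizes, RPKM the exon lengths in the files, and standard errors the quasi-likelihood dispersion. Shares were compared by exact permutation. Limits of 3 counts cover counting error only, and the 95% intervals of fold changes cover the spread between mice as well. The procedure was tested on simulated data. Alternatives were DESeq2 1.42.0, limma-voom (limma 3.58.1), the likelihood ratio test, no TMM scaling, other filters, the replicate number as a block, p under 0.01, raw-count shares and each library left out.

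The genes, lists and tests were chosen with earlier results of these data known. Named were all 10 genes, up to 5 called genes per list, Nr0b2, Cyp7a1, and the 3 genes closest to Dnmt3a in centred log2 CPM (prior count 2). Genes named beyond this rule are said in the text to have been chosen after their values were seen, and the genes that define a list and the called cell type markers are named as such. For 1 gene that this rule names, no values are reported here, although it is included in the counts and medians of its list. Adgre1 was matched as Emr1, and Ly6g and Tf were not matched.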

Additional observations from a re-analysis of the deposited data

How the results depend on the processing

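Of the 8 tested genes, 0 were called under any of the alternatives other than leaving out a library, where between 0 and 1 were called lower (Ehmt2, without FGF19 replicate 3). With 1 library left out Kdm1a lay between -0.00045 and 0.10, a change of sign, and the other 7 kept their sign in all alternatives. The median of the set turned from -0.06 to 0.12 when Tet1 and Uhrf1 were included without the filter. Over all genes, lower calls were 579 with the likelihood ratio test, 626 at p under 0.01 and between 91 and 926 with 1 library left out, and higher calls between 236 and 1015. In the 8 lists, lower calls lay between 2 and 14 and higher calls between 2 and 7 with 1 library left out. In the methyl donor cycle, lower calls lay between 2 and 10 with 1 library left out, and 2 were called higher by DESeq2. The Dnmt3b share differed by 1.79 percentage points in raw counts and by between 2.46 and 3.62 with 1 library left out. The cause of these shifts was not tested. Same-numbered livers had correlations of deviations of -0.03, -0.18 and -0.18, and differently numbered livers between -0.13 and 0.23. The labels do not say whether replicate numbers mark a shared batch. With 3 mice per group, these correlations cannot decide it. With the replicate number as a block, 164 genes were lower and 370 higher, 7 and 2 in the lists and 5 lower in the methyl donor cycle. Depth limited Tet1 and Uhrf1.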
